A study of Mus musculus with 10 samples.

Results

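Ribosome biogenesis and RNA polymerase I genes were described here as a list of 37 genes, chosen for their known function by a rule that uses no measured value, in splenic germinal centre (GC) and naive B cells of mice. Earlier results of these data were known when the list was chosen. Each gene was read by the brightest, on average over the 10 arrays, of the probe sets assigned to its symbol alone. Of the 37 genes, 36 had such a probe set and all 36 were among the 17204 genes tested of 18194 symbols on the array. The remaining gene, Npm3, a histone chaperone related to nucleophosmin, was not analysed here. RNA of 10 sorted cell samples was hybridized to Affymetrix whole-genome mouse arrays, which read a gene through groups of short oligonucleotides called probe sets.

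GC B cells are antigen-activated B cells that divide rapidly and mutate their antibody genes in the follicles of the spleen after immunization. They came from 2 lines of mice on the Balb/c background. Both lines carry an immunoglobulin heavy chain transgene and a targeted deletion of the endogenous JH locus. The line called B1-8 (VH186.2-Tg JH KO) gave 3 samples, and the line called V23 (V23-Tg JH KO) gave 3 more. These mice received 50 µg of NP25-CGG, a hapten on chicken gamma globulin, in alum by the intraperitoneal route, and splenic λ+ PNA+ B220+ cells were sorted 14 days later. The 4 naive samples were splenic B cells of unimmunized Balb/c mice, for which the labels give no transgene. Naive and GC samples therefore differed in immunization, in the transgene with the JH deletion and in the stains of the sort, and these cannot be told apart. All cells were kept cold in buffer with sodium azide. The labels give no age and do not say whether replicates were separate or pooled animals, so a p-value here speaks to the spread among these samples, which may be technical.

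Ribosomes are built in the nucleolus. RNA polymerase I transcribes a long precursor RNA from the ribosomal DNA repeats. Small nucleolar ribonucleoproteins (snoRNPs) guide its chemical modification, box C/D particles by methylation and box H/ACA particles by pseudouridylation. Assembly factors then fold, cut and package it into the small (40S) and large (60S) subunits. Lymphocytes that leave the resting state to divide enlarge their nucleoli and make more ribosomes, and the transcription factor Myc is a known activator of many of these genes.

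Levels below are log2 probe set signals, and differences are log2 GC minus naive with their standard error (SE) from 1 limma model of the 3 groups. A gene was called when its limma p, adjusted over all 17204 genes, was under 0.05. On every array the mean unlogged signal after trimming 2% at each end was 500. A level therefore stands relative to the total signal of its array, and a change in total RNA per cell would not be seen. In sorted bulk samples, fewer cells of a type and less RNA per cell cannot be told apart.

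Markers and array quality also moved with the groups. Of the 5 measured B cell genes, Cd79b, Ms4a1 and Ptprc were at 13.79 or above on all 10 arrays and were not called. Cd79a and Pax5 were lower in GC samples, by −0.40 ± 0.13 (adjusted p = 0.0318) and −1.32 ± 0.21 (adjusted p = 0.00109). All 5 measured GC genes (Bcl6, Fas, S1pr2, Mybl1 and Gcsam) and all 15 measured mitosis genes were higher in GC than in naive samples. The mean level of the mitosis genes was 7.82 to 9.21 on naive and 11.28 to 11.70 on GC arrays. Naive replicates 2 and 4 stood apart, with GC gene means of 9.80 and 9.01 against 8.08 and 8.24 in the other naive samples. They were unlike in other markers. Replicate 2 had the highest naive mean of mitosis genes (9.21 against 7.82 to 8.51). Replicate 4 had the highest naive means of neutrophil genes (9.27 against 7.2 to 7.73) and macrophage genes (8.40 against 6.82 to 7.36). All 9 measured neutrophil genes were higher in GC samples, with means of 7.2 to 9.27 on naive and 10.56 to 11.40 on GC arrays. Of the markers of T cells, macrophages, plasma cells and erythroid cells, 0 of 8, 1 of 9, 3 of 8 and 0 of 5 rose and 1, 3, 1 and 1 fell. RNA quality moved too: the 3′ minus 5′ signal difference of Actb was 1.27 to 1.65 in naive, 0.81 to 1.19 in B1-8 and 0.71 to 0.87 in V23 samples. The part of mitosis, neutrophil genes and RNA quality in the results that follow was not tested.

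GC B cells showed a mixed pattern over the ribosome biogenesis genes, with small changes in both directions. With both GC groups averaged, 14 of 36 genes were higher, 6 were lower and 16 were not called. Over all genes, 20.5% were called higher and 21% lower, 41.5% in all, against 38.9% and 16.7% of these 36. With each array centred on its median, 14 were higher and 3 lower, where 24.2% and 16.9% of all genes were. The median difference was 0.10, against 0.06 for all genes, and the range ran from −1.04 for Polr1b to 1.22 for Bysl. Only those extremes passed a 2-fold change, Bysl upward and Polr1b downward. Of the 36 genes, 28 lay within 0.5 of no change, which is 77.8% against 54.7% of all genes. These shares were not matched for signal level.

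These genes were measured with little spread. Their median residual SD between samples of a group was 0.11, against 0.28 for all genes, and the mean level of the 36 was 10.74 to 10.81 on naive, 10.80 to 10.85 on B1-8 and 10.83 to 10.99 on V23 arrays. The median over all probe sets of an array was 6.7 to 7.04, so the 36 genes were bright. Whether other genes of like level spread as little was not tested. The groups separated fully for 12 genes with every GC array above every naive array and for 5 with every GC array below, while 19 overlapped. Over all genes 17% separated upward and 18.5% downward. Calls of 8 of the 20 genes held under all 20 alternative settings: Bysl, Nop58, Polr1d, Nhp2 and Nolc1 upward, Polr1b, Gnl3 and Nop56 downward. Of these, Nop58, Polr1b and Gnl3 have a single probe set, so the settings that change the probe set could not alter their values.

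**Figure D1:**
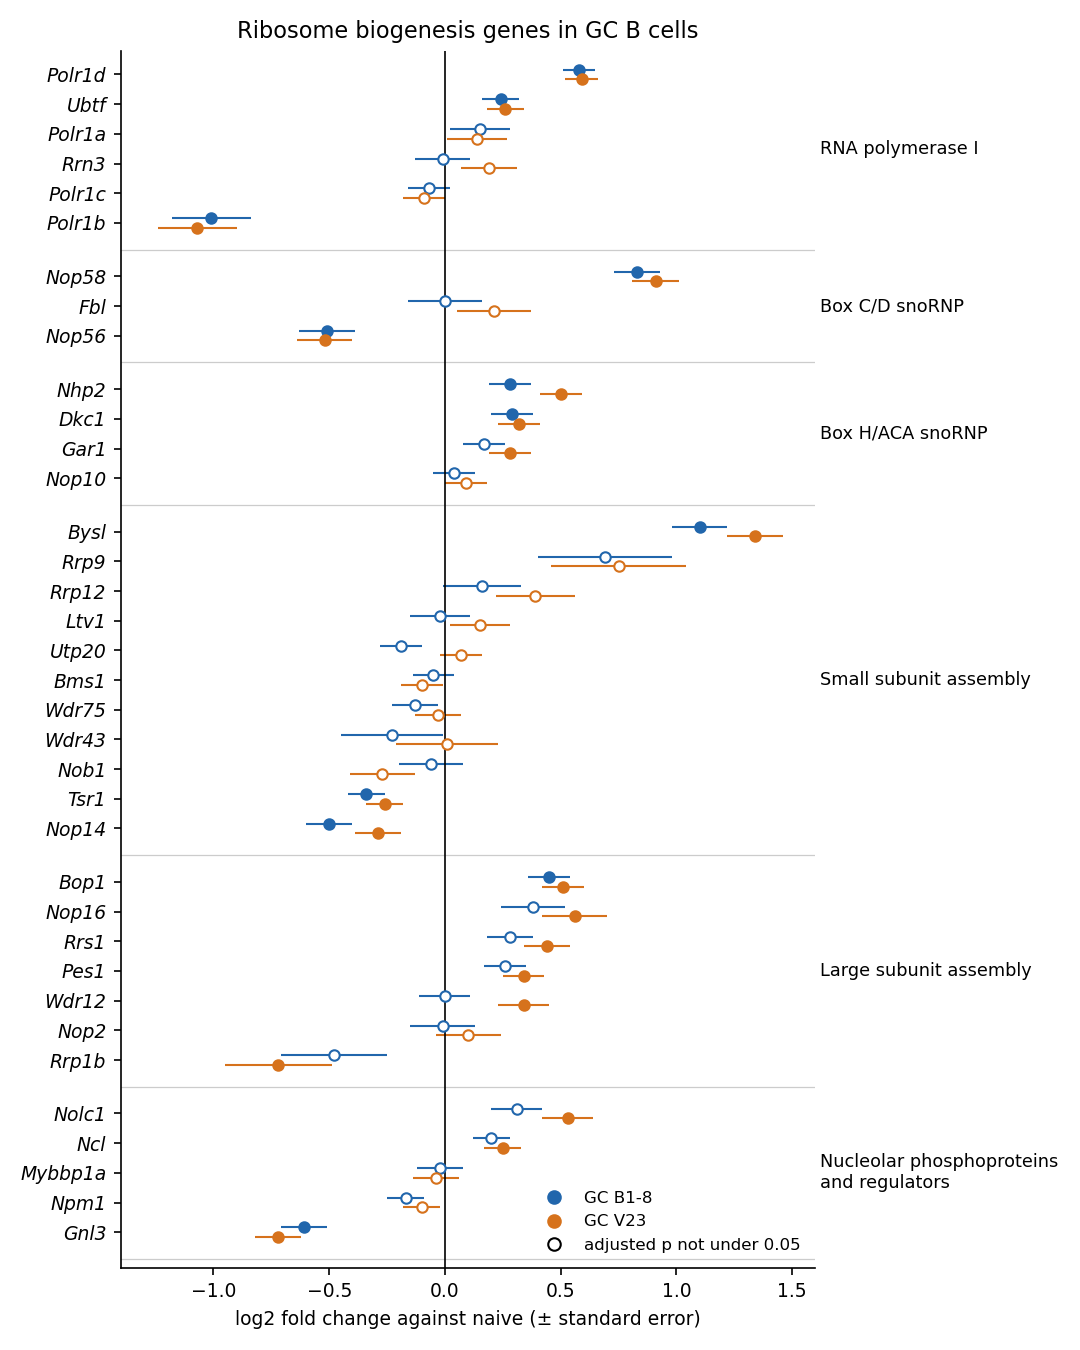
Log2 difference from naive samples (horizontal) for each of the 36 measured genes, grouped by role, in B1-8 (blue) and V23 (orange) GC samples with SE bars; open points were not called. Bysl and Nop58 stand at the upper end and Polr1b at the lower end in both lines, and 28 genes averaged over both lines lie within 0.5 of 0.

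In B1-8 GC cells 7 genes were higher and 5 lower than in naive cells, and 24 were not called. Over all genes 16.4% were called higher and 17.3% lower, 33.7% in all, against 19.4% and 13.9% of the 36. The median was 0.00 against 0.05 for all genes. In V23 GC cells 14 were higher, 6 lower and 16 not called, against 18.2% and 19.7% of all genes called higher and lower and 37.9% in all. The V23 counts were 38.9% and 16.7% of the 36, with a median of 0.17 against 0.06. After median centring of the arrays, B1-8 had 8 higher and 3 lower genes, where all genes gave 17.7% and 14%. V23 then had 14 and 2, where all genes gave 22.2% and 14.7%. All B1-8 arrays lay above all naive arrays for 13 genes and below for 6, where 21.2% and 21.1% of all genes did so. All V23 arrays lay above for 15 and below for 6, where 21.8% and 22.6% of all genes did so. Both comparisons share the 4 naive arrays.

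Bysl, Nop58, Polr1d, Bop1, Nhp2, Dkc1 and Ubtf were called higher in both lines. Polr1b, Gnl3, Nop56, Nop14 and Tsr1 were called lower in both. Of these calls in B1-8, those of Nhp2, Ubtf and Dkc1 were lost in 16, 13 and 12 of 21 alternative settings. In V23, those of Nop14, Tsr1, Ubtf and Dkc1 were lost in 16, 12, 10 and 8 of 21. A further 8 were called in V23 alone and 0 in B1-8 alone, and 0 in opposite directions. A call in V23 alone does not show a difference between the lines, which was tested directly below. Single libraries moved these counts. Without naive replicate 1, 2 or 3, B1-8 replicate 2 or 3, or V23 replicate 3, the count higher in B1-8 was 4. In these settings 13% to 16.1% of all genes were called higher in B1-8. Without naive replicate 2 or V23 replicate 2 the count higher in V23 was 9, where 16.7% and 15% of all genes were higher. Without naive replicate 1 or 2 or V23 replicate 1 or 3 the count lower in V23 was 3. There 17.3% to 18.3% of all genes were lower. Without naive replicates 2 and 4 together, 4 were higher in B1-8, 9 in V23 and 8 with both groups averaged. The shares of all genes called higher were then 14.5%, 16.5% and 18.1%.

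**Figure D2:**
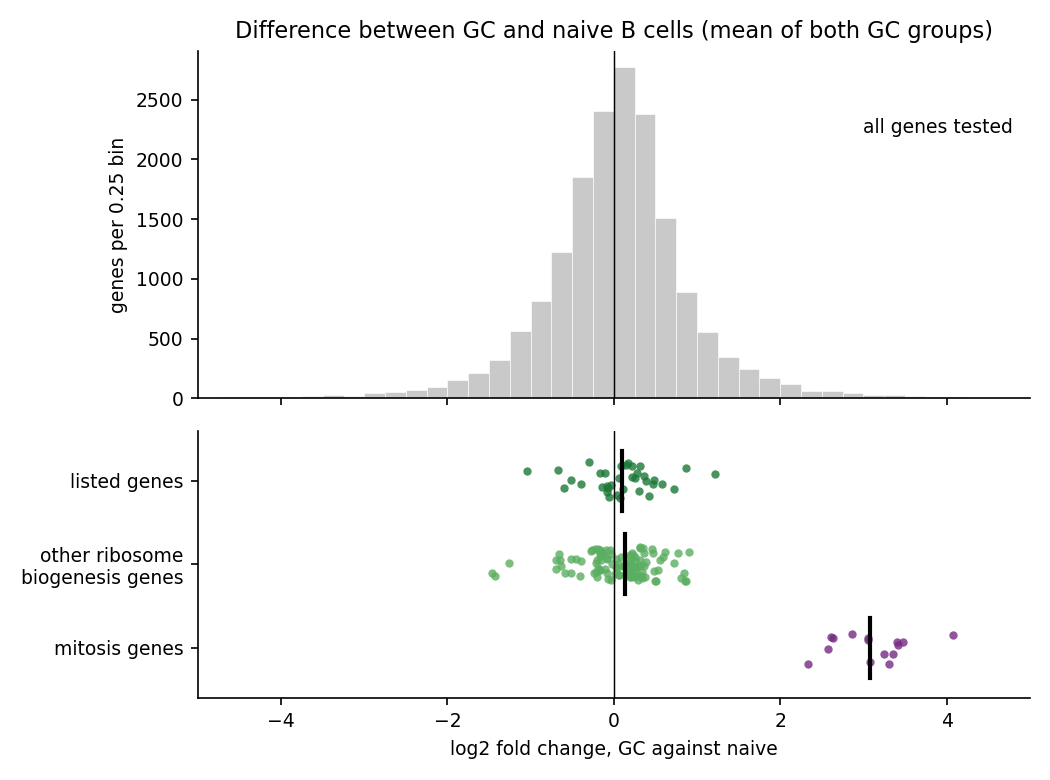
Log2 difference of the mean of both GC groups from naive: above, the number of genes per bin over all genes tested, of which some lie outside the drawn range; below, a point per gene for the 36 listed genes, the 105 further pathway genes and the 15 mitosis genes, with the median as a bar. The medians are 0.10, 0.14 and 3.08, and the middle of all genes, from the 25th to the 75th percentile, spans −0.41 to 0.48.

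The sequence just before the start of transcription is shown for 4 genes whose calls held in every alternative setting with both GC groups averaged (Bysl, Nop58 and Polr1d upward, Polr1b downward), so that they can be set beside genes with known promoter motifs. Windows of 250 bases before to 50 after the start were searched in the RefSeq set for build GRCm38.p6, which held 32 of the 37 genes. The last 100 bases before the start are printed 5′ to 3′ on the gene's strand. The first 4 hold none of the motifs searched: the E-box CACGTG, which Myc with Max and the USF factors bind, the ETS site CCGGAAGT and the NRF1 site (GCGCA followed by its reverse complement TGCGC), each on both strands. The motifs do not overlap each other in letters.
Bysl, chr17:47611493-47611592, minus strand: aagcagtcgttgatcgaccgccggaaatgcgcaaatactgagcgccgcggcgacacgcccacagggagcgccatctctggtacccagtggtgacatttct
Nop58, chr1:59684906-59685005, plus strand: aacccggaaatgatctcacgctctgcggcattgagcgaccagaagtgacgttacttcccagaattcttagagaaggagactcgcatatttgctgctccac
Polr1d, chr5:147077246-147077345, plus strand: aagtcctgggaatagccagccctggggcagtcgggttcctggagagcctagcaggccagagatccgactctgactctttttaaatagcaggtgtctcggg
Polr1b, chr2:129100896-129100995, plus strand: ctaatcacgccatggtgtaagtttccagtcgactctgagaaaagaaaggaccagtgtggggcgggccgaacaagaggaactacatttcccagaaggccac

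Nop2 and Rrn3, neither of which was called, each hold an E-box in these 100 bases, and Nhp2 and Gar1, both higher, hold an ETS site. The motif is in capitals. In Gar1 it lies on the opposite strand and so reads ACTTCCGG.
Nop2, chr6:125131783-125131882, plus strand: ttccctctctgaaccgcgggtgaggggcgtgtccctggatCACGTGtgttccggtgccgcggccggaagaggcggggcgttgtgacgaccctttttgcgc
Rrn3, chr16:13780599-13780698, plus strand: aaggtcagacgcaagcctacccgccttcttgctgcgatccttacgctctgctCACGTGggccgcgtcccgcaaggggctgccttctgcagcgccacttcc
Nhp2, chr11:51619673-51619772, plus strand: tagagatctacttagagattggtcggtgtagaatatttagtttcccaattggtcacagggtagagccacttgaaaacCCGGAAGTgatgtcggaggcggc
Gar1, chr3:129831397-129831496, minus strand: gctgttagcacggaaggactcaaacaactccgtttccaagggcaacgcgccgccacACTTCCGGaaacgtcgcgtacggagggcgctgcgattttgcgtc

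Over the whole windows, an E-box was found in 8 of 32 genes (25%), against 8.09% of 27025 genes with a window. It was present in 1 of 12 higher genes (Pes1), 1 of 6 lower genes (Tsr1) and 6 of 13 that were not called. An ETS site was found in 7 of 32 (21.9%) against 4.31% of all genes, in 2 of the higher, 1 of the lower and 4 of the genes not called. The NRF1 site was found in 0 of 32 against 1.07%. A match to these letters is a description of the window and no evidence of binding.

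RNA polymerase I subunits and its initiation factors moved apart from each other. Of 6 genes, Polr1d and Ubtf rose, Polr1b fell and Polr1a, Polr1c and Rrn3 were not called. Of all genes 20.5% rose and 21% fell. Polr1b, the second largest subunit, which forms the active site together with Polr1a, lay at 9.66, 9.40, 9.52 and 9.20 in naive samples, at 8.64, 8.28 and 8.37 in B1-8 and at 8.03, 8.55 and 8.55 in V23 samples. Every GC sample was below every naive sample, and the lines overlapped. The difference was −1.04 ± 0.15 (adjusted p = 0.000486), or 0.486-fold. Polr1a, the largest subunit, lay at 9.11, 8.95, 8.90 and 9.05 in naive samples, at 9.25, 8.98 and 9.25 in B1-8 and at 9.28, 9.30 and 8.86 in V23 samples. All groups overlapped, with a difference of 0.15 ± 0.11 and a 95% interval of −0.11 to 0.41 (adjusted p = 0.339). With quantile normalization Polr1a was called higher, at 0.38 (limma adjusted p = 0.0185).

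Polr1c and Polr1d form a heterodimer that RNA polymerases I and III share. Polr1d lay at 12.26, 12.26, 12.16 and 12.23 in naive samples, at 12.81, 12.76 and 12.84 in B1-8 and at 12.77, 12.85 and 12.82 in V23 samples. All 6 GC samples were above all 4 naive samples, with a difference of 0.58 ± 0.06 (adjusted p = 0.000106). The fold was 1.5. Polr1c lay at 11.13, 10.95, 10.98 and 10.96 in naive samples, at 10.91, 10.89 and 11.00 in B1-8 and at 10.91, 11.00 and 10.83 in V23 samples. The groups overlapped, and the difference of −0.08 ± 0.07 was not called (interval −0.25 to 0.08). The partners were thus measured with unlike changes, a rise for Polr1d and no call for Polr1c.

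Ubtf binds the ribosomal DNA promoter, and Rrn3 links the polymerase to the factors there. Ubtf lay at 11.10, 11.08, 11.11 and 11.03 in naive samples, at 11.25, 11.40 and 11.32 in B1-8 and at 11.32, 11.38 and 11.31 in V23 samples. All GC samples were above all naive samples, by 0.25 ± 0.06 (adjusted p = 0.0136). Without naive replicates 2 and 4 this was 0.22 with an adjusted p of 0.0997. Rrn3 lay at 9.93, 9.74, 9.83 and 9.87 in naive samples, at 9.61, 9.84 and 10.06 in B1-8 and at 9.93, 10.19 and 9.99 in V23 samples. Its B1-8 samples overlapped the naive ones, its V23 samples lay at or above the highest of them, and the difference of both lines was 0.09 ± 0.10 (interval −0.15 to 0.33).

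The core proteins of box C/D snoRNPs went in opposite directions. Nop58 and Nop56 are paralogs that sit side by side on the guide RNA, and Fbl, fibrillarin, is the methyltransferase. Nop58 lay at 9.99, 9.75, 9.88 and 9.84 in naive samples, at 10.72, 10.77 and 10.59 in B1-8 and at 10.77, 10.68 and 10.88 in V23 samples. It was higher in all GC samples, by 0.87 ± 0.08 (adjusted p = 4.87e-05) or 1.83-fold. Nop56 lay at 11.83, 11.76, 11.80 and 11.61 in naive samples, at 11.47, 11.23 and 11.04 in B1-8 and at 11.17, 11.28 and 11.24 in V23 samples. It was lower in all GC samples, by −0.51 ± 0.10 (adjusted p = 0.00278). Fbl was not called, at 0.11 ± 0.14 (adjusted p = 0.566), with levels from 12.06 to 12.69 over the 10 arrays.

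Of the 4 box H/ACA proteins 3 rose and 0 fell, where 20.5% of all genes rose and 21% fell. In B1-8 2 of 4 were called higher and in V23 3 of 4, where 16.4% and 18.2% of all genes were. Dkc1, dyskerin, is the pseudouridine synthase, and Nhp2, Gar1 and Nop10 are its partners, which telomerase also uses. Nhp2 lay at 11.53, 11.25, 11.50 and 11.54 in naive samples, at 11.77, 11.70 and 11.74 in B1-8 and at 12.01, 11.91 and 11.95 in V23 samples. The 3 groups did not overlap, with naive lowest and V23 highest, and GC samples were higher by 0.39 ± 0.08 (adjusted p = 0.00404). Dkc1 rose by 0.31 ± 0.08 (adjusted p = 0.0138) and was above naive on every GC array. Gar1 rose by 0.22 ± 0.08 (adjusted p = 0.041), with overlap between groups, and was not called in 11 of the 20 alternative settings. Nop10 was not called, at 0.06 ± 0.08. Dkc1 had an adjusted p of 0.0752, and Gar1 of 0.252, without naive replicates 2 and 4. With quantile normalization the limma adjusted p was 0.137 for Dkc1 and 0.0884 for Gar1.

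The factors of the small subunit held the gene with the largest rise. Of 11 genes 2 rose, 2 fell and 7 were not called. These are 18.2% in each direction, where 20.5% of all genes rose and 21% fell. Bysl, bystin, acts late in 40S assembly. Bysl lay at 8.59, 8.70, 8.78 and 9.02 in naive samples, at 9.98, 9.96 and 9.68 in B1-8 and at 10.17, 10.13 and 10.05 in V23 samples. All GC samples were above all naive samples and the V23 samples above the B1-8 samples. The GC difference was 1.22 ± 0.11 (adjusted p = 3.22e-05), or 2.33-fold. Its second, dimmer probe set (1450742_at) gave 0.11 ± 0.12 and was not called, so the rise of Bysl rests on 1 probe set (1422767_at).

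Rrp9 is a U3-specific protein of the processome, the large particle on the nascent precursor. Rrp9 lay at 8.48, 8.53, 8.11 and 7.74 in naive samples, at 9.21, 8.73 and 8.77 in B1-8 and at 9.11, 9.42 and 8.35 in V23 samples. V23 replicate 3 lay within the naive range, and the difference of 0.72 ± 0.24 was close to the threshold (adjusted p = 0.0437). It was not called in 10 of 20 alternative settings, among them those without naive replicate 1, 3 or 4, any B1-8 replicate, or V23 replicate 1 or 2. Nop14, a processome scaffold, and Tsr1, a GTPase-like factor of the 40S precursor, were lower on every GC array, at −0.40 ± 0.08 (adjusted p = 0.00482) and −0.30 ± 0.07 (adjusted p = 0.00713). With arrays centred on their medians neither was called (Nop14 at −0.30, adjusted p = 0.0739, and Tsr1 at −0.20, adjusted p = 0.121). Nop14 was not called with quantile normalization either, at −0.20 (limma adjusted p = 0.105).

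The other 7 small subunit genes were not called, with differences from −0.17 for Nob1 to 0.28 for Rrp12. With quantile normalization Rrp12 was called higher, at 0.55 (limma adjusted p = 0.016), and Bms1 lower, at −0.23 (0.0264). Nob1 is the nuclease that makes the final cut of 18S RNA, Ltv1 and Rrp12 serve the maturation and export of the 40S precursor, Bms1 is a processome GTPase, and Utp20, Wdr43 and Wdr75 are processome proteins. Wdr43 varied the most within groups among them, from 10.86 to 11.47 in B1-8 and from 10.89 to 11.76 in V23 samples. Most of these roles were worked out in yeast and human cells.

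Of the 7 large subunit factors 4 rose, 1 fell and 2 were not called, where 20.5% of all genes rose and 21% fell. In B1-8 1 of 7 was called higher and in V23 5 of 7, where 16.4% and 18.2% of all genes were. Bop1, Pes1 and Wdr12 form the PeBoW complex, which processes the precursor toward 60S in mammalian cells. Bop1 lay at 10.39, 10.43, 10.41 and 10.50 in naive samples, at 10.91, 10.83 and 10.89 in B1-8 and at 10.93, 11.11 and 10.80 in V23 samples. All GC samples were higher, by 0.48 ± 0.08 (adjusted p = 0.00114). The mean of its probe sets turned the other way, to −0.82 (adjusted p = 0.0431). Pes1 rose by 0.30 ± 0.08 (adjusted p = 0.0112), also on every GC array, and the mean of its probe sets gave −0.12, not called. Wdr12 was not called over both lines, at 0.17 ± 0.09, but was higher in V23 alone, at 0.34 ± 0.11 (adjusted p = 0.0337). That call was lost in 8 of 21 alternative settings, among them those without naive replicate 1, 2 or 4 or V23 replicate 2 or 3, and without naive replicates 2 and 4 together (0.30, adjusted p = 0.148).

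Nop16, a 60S assembly factor and known Myc target, lay at 9.90, 9.71, 9.68 and 10 in naive samples, at 10.26, 10.18 and 10.15 in B1-8 and at 10.09, 10.60 and 10.45 in V23 samples. All GC samples were above the naive samples, by 0.47 ± 0.12 (adjusted p = 0.0116), while the mean of its probe sets gave −0.05, not called. Rrs1, which in yeast helps place the 5S particle in the 60S precursor, rose by 0.36 ± 0.09 (adjusted p = 0.00982). It was not called without naive replicates 2 and 4 (0.37, adjusted p = 0.059), nor with quantile normalization (0.22, limma adjusted p = 0.0657). Nop2, a methyltransferase of the large ribosomal RNA, was not called, at 0.04 ± 0.12.

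Rrp1b, a nucleolar protein linked to the processing of the precursor, was the 1 lower gene of this group. Rrp1b lay at 10.53, 10.49, 10.45 and 9.74 in naive samples, at 9.91, 9.86 and 9.69 in B1-8 and at 9.72, 9.82 and 9.20 in V23 samples. Naive replicate 4 lay inside the GC range and the other naive samples above it. The difference was −0.60 ± 0.19 (adjusted p = 0.0334). It was not called in 10 of 20 alternative settings, among them those without naive replicate 1, 2 or 3, any B1-8 replicate or V23 replicate 3.

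Among the nucleolar regulators, 2 of the 5 measured genes rose, 1 fell and 2 were not called, where 20.5% of all genes rose and 21% fell. Nolc1, a chaperone of snoRNPs, lay at 10.65, 10.64, 10.54 and 10.58 in naive samples, at 10.87, 10.89 and 10.96 in B1-8 and at 10.93, 11.35 and 11.10 in V23 samples. It was higher on every GC array, by 0.42 ± 0.09 (adjusted p = 0.00575). Gnl3, nucleostemin, a nucleolar GTPase abundant in dividing progenitor cells, lay at 11.21, 11.03, 10.96 and 11.09 in naive samples, at 10.63, 10.44 and 10.32 in B1-8 and at 10.36, 10.37 and 10.32 in V23 samples. It was lower on every GC array, by −0.67 ± 0.09 (adjusted p = 0.00029) or 0.629-fold, while all 15 mitosis genes rose in the same samples.

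Ncl, nucleolin, and Npm1, nucleophosmin, are abundant nucleolar proteins. Ncl rose by 0.22 ± 0.06 (adjusted p = 0.0214) from a naive range of 13.36 to 13.48 to a GC range of 13.62 to 13.75. It was not called without naive replicates 2 and 4 (0.24, adjusted p = 0.0804), nor with quantile normalization (0.16, limma adjusted p = 0.142). Npm1, at 13.66 to 13.99 over the 10 arrays, was not called (−0.14 ± 0.07, adjusted p = 0.168). Mybbp1a, a nucleolar Myb-binding protein, was not called, at −0.03 ± 0.09.

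**Figure D3:**
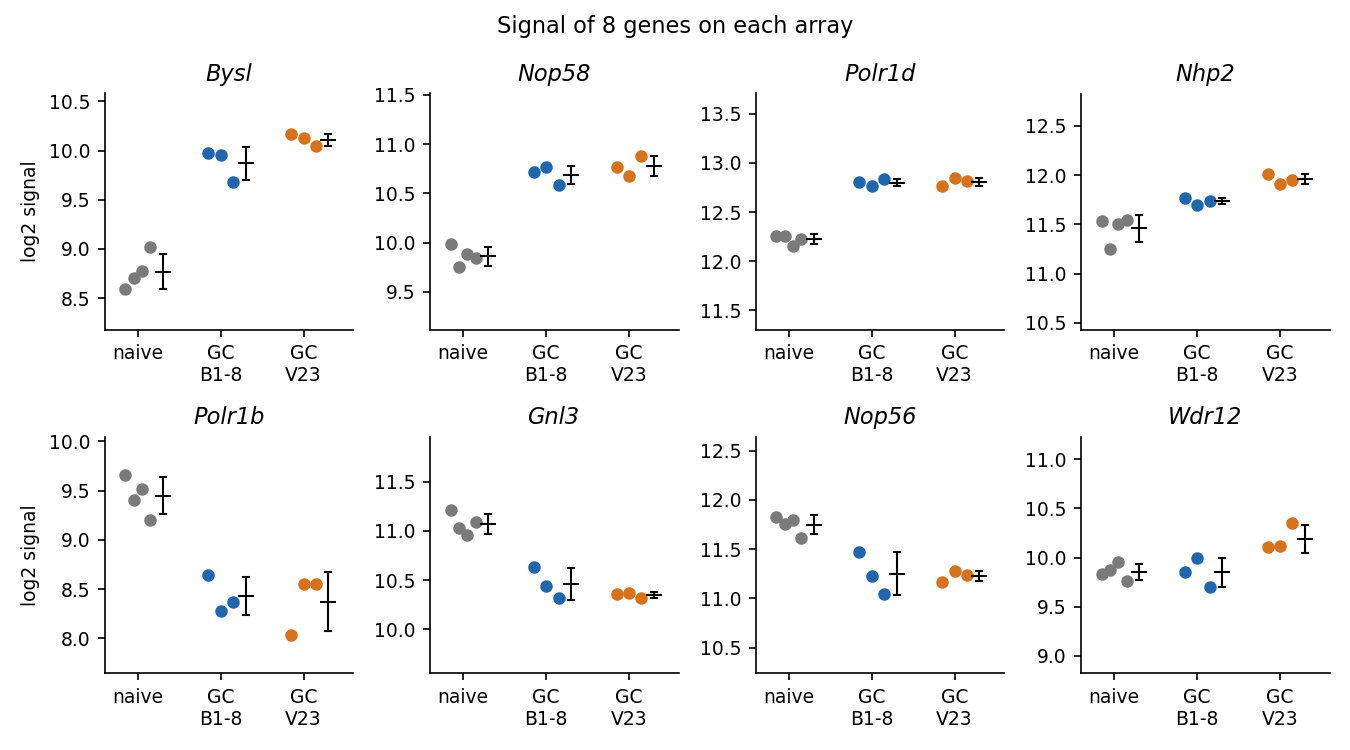
Log2 signal of 8 genes on each array, with a panel per gene, a point per sample and the group mean with its SD beside the points; axes do not start at 0. Bysl, Nop58, Polr1d and Nhp2 lie higher, and Polr1b, Gnl3 and Nop56 lower, in all 6 GC samples than in all 4 naive samples, while the B1-8 samples of Wdr12 overlap the naive ones.

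The 2 GC lines were compared directly, since they carry different heavy chain transgenes. With limma 0 of the 36 genes were called higher and 0 lower in B1-8 than in V23, as were 0 of 36 under each of the alternative settings run. Over all genes 0.00581% were called higher and 0.0174% lower, 0.0233% in all. At an unadjusted p under 0.05, 0 of the 36 were higher and 2 lower. The share of all genes at that unadjusted p was not counted, so no excess is read from these 2. Of the 36 genes, 27 had the higher level in V23, and the median B1-8 minus V23 difference was −0.08, against 0.00 for all genes. The lines' arrays separated for 6 genes with B1-8 below (Nhp2, Nop14, Utp20, Bysl, Wdr12 and Ncl) and for 0 above, where 6.63% and 7.07% of all genes did so.

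The smallest p-values belonged to Wdr12, Utp20 and Nhp2. Wdr12 lay at 9.83, 9.87, 9.95 and 9.76 in naive samples, at 9.85, 10 and 9.70 in B1-8 and at 10.11, 10.12 and 10.35 in V23 samples. B1-8 overlapped naive and V23 lay above both. The difference between the lines was −0.34 ± 0.11, with a 95% interval of −0.61 to −0.08 (limma adjusted p = 0.558). Utp20 lay at 9.98, 10.01, 9.87 and 9.93 in naive samples, at 9.88, 9.70 and 9.69 in B1-8 and at 9.94, 10.03 and 10.07 in V23 samples. V23 overlapped naive and B1-8 lay below V23, by −0.26 ± 0.09 with an interval of −0.47 to −0.05 (limma adjusted p = 0.565). Nhp2, with its samples given above, differed by −0.22 ± 0.10, with an interval of −0.45 to 0.01 (limma adjusted p = 0.653).

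The V23 arrays were unequal in this tilt. V23 replicate 2 was the highest of the 10 arrays for 11 genes and V23 replicate 3 for 9, while V23 replicate 1 was so for 3. Naive replicate 1 was highest for 9. The mitosis genes were also lower in B1-8 than in V23, with a median of −0.29, 11 of 15 separated between the lines and 0 called. The median B1-8 minus V23 difference was 0.33 for neutrophil, 0.43 for macrophage and 0.64 for T cell genes. Of these, 6 of 9, 8 of 9 and 6 of 8 were higher in B1-8. The lines separated for 3, 4 and 1 of them, and 0 were called. Plasma cell and erythroid genes had medians of 0.03 and −0.02, with 0 called. The part of mitosis genes and of these markers in the tilt was not tested.

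Other probe sets of the same genes were read as a check of each measurement, an alternative chosen after the data were seen. There were 36 such probe sets, called in a separate limma fit of 41235 probe sets. In that fit the probe sets used for Gar1 (adjusted p = 0.0768) and Ncl (adjusted p = 0.0534) themselves did not pass. For genes called higher, 9 of them were higher too, 3 were lower and 6 were not called. For genes called lower, 1 was lower, 1 higher and 2 not called. The direction matched for 13 of 19 probe sets with a mean level of at least 9 and for 9 of 17 below it.

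The rise of Polr1d was seen on all 3 of its other probe sets (0.42 to 0.80), and the fall of Nop56 on its other (−0.51 ± 0.10). Rrs1 and Nhp2 rose on theirs, by 0.47 ± 0.12 and 0.52 ± 0.09. Against these stood 3 genes with a dim probe set that was called the other way. Bop1 gave −2.12 ± 0.54 on 1430491_at, whose mean level was 6.53, Pes1 gave −0.54 ± 0.13 on 1416173_at, at a mean level of 7.59, and Ncl gave −0.49 ± 0.14 on 1442404_at, at 6.29. Rrp1b, lower on the probe set used, was higher on 1452118_at (0.50 ± 0.14). Wdr75 and Polr1a, not called above, gave −1.52 ± 0.22 on 1442296_at and −0.73 ± 0.16 on 1456066_a_at. Of the called genes, Polr1b, Gnl3, Nop14, Nop58, Gar1 and Rrp9 have a single probe set, so this check could not be made for them. Whether the probe sets of a gene read different transcripts was not tested.

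**Figure D4:**
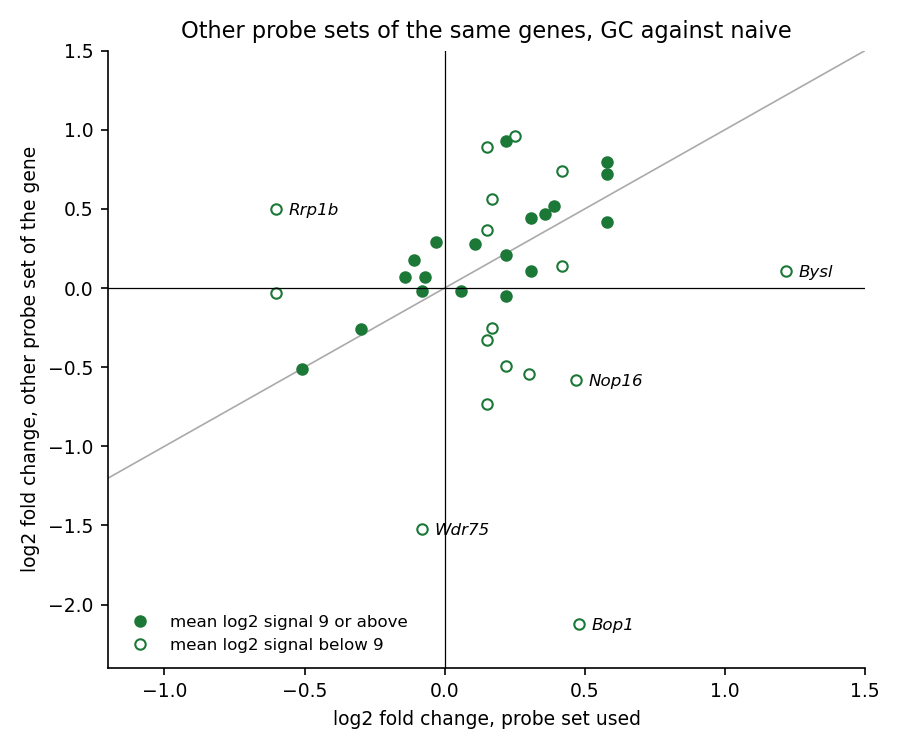
Log2 GC minus naive difference of the probe set used for a gene (horizontal) against that of each other probe set of that gene (vertical), with the diagonal in grey; filled points have a mean log2 signal of 9 or above and open points one below 9. Bop1 (0.48 against −2.12), Wdr75 (−0.08 against −1.52) and Bysl (1.22 against 0.11) lie far from the diagonal. So do Rrp1b (−0.60 against 0.50) and Nop16 (0.47 against −0.58), with opposite signs.

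A wider list of 110 further genes of the pathway gave a like mixture. Of 105 measured, 33 were higher in GC cells, 17 lower and 55 not called, with a median of 0.14. These are 31.4% and 16.2%, beside 20.5% and 21% of all genes. In B1-8 21 were higher and 15 lower (20% and 14.3%, where all genes gave 16.4% and 17.3%). In V23 30 were higher and 14 lower (28.6% and 13.3%, where all genes gave 18.2% and 19.7%). Between the lines 0 of 105 were called, with 1 higher and 1 lower at an unadjusted p under 0.05. The share of all genes at that unadjusted p was not counted.

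The higher genes with the smallest p were Emg1 at 0.86 ± 0.08, Pa2g4 at 0.87 ± 0.08, Eif6 at 0.84 ± 0.08 and Rrp7a at 0.77 ± 0.08. Emg1 methylates 18S RNA, Pa2g4 binds 60S particles, Eif6 keeps immature 60S subunits from joining 40S, and Rrp7a is a processome factor. The lower ones were Mdn1 at −1.26 ± 0.09, Taf1a at −1.47 ± 0.15, Utp25 at −0.65 ± 0.07 and Noc2l at −0.70 ± 0.10. Mdn1, midasin, is the giant ATPase that strips factors from 60S precursors, Utp25 is a processome protein, and Noc2l is the relative of a yeast 60S export factor.

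Taf1a is a subunit of SL1, the complex that recognises the ribosomal DNA promoter with Ubtf. Taf1a lay at 9.50, 9.24, 9.40 and 9.08 in naive samples, at 8.03, 8.36 and 7.66 in B1-8 and at 7.76, 7.70 and 7.47 in V23 samples. Every GC sample was below every naive sample. The other SL1 subunits on the wider list, looked at after the value of Taf1a was seen, were Taf1c at −0.66 ± 0.10, Taf1d at −1.43 ± 0.22 and Taf1b at 0.34 ± 0.09, each called.

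Myc lay at 10.23, 10.31, 10.16 and 9.86 in naive samples, at 9.83, 9.43 and 9.38 in B1-8 and at 9.49, 9.50 and 9.02 in V23 samples. It was lower on every GC array, by −0.70 ± 0.15 (adjusted p = 0.00506). Its partner Max was not called with both lines averaged, at −0.58 ± 0.21 (adjusted p = 0.0606), but was lower in B1-8, at −0.78 ± 0.25 (adjusted p = 0.0436), and not called in V23, at −0.37 ± 0.25. Whether the level of Myc bears on that of the ribosome biogenesis genes was not tested.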

How the data were processed

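RNA of 4 naive, 3 B1-8 and 3 V23 samples was read on Affymetrix mouse arrays. Per probe set, the authors deposited a log2 signal for each array. GCRMA is the tool named, without a version, per the submitters' processing notes. The values have no floor (lowest −4.29, highest 14.9) and share a trimmed mean of 500, as MAS5 signals would. How they were scaled is not given in the sources used here. They were used as deposited.

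Of 45101 probe sets, 34958 carry 1 gene symbol in the platform annotation, 932 several and 9211 none. A gene was read by the brightest, on average, of its single-symbol probe sets and tested if this exceeded log2 4 on at least 3 arrays. limma 3.58.1 (R 4.3.3) was fitted to the 10 arrays with a mean for each of 3 groups, by empirical Bayes without a trend. Tests were two-sided, and p-values were adjusted by Benjamini-Hochberg in each comparison, with a threshold of 0.05. The residual degrees of freedom numbered 7, and the prior added 1.46. Arrays give no read depth, so their number limits the precision. The test was tried on simulated data first, with 200 of 17204 genes changed. Between the lines it recovered 0% of 1.5-fold, 37% of 2-fold and 74.5% of 4-fold changes. Many more genes than 200 were called against naive, so the simulated recovery there was not set beside these results.

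Values in every sample are given for the 8 highest and 4 lowest called genes, the 3 smallest p-values between the lines and all RNA polymerase I genes. Up to 4 further pathway genes per direction with the smallest p are named. The genes, the lists and these rules were chosen with earlier results of these data known. Alternatives covered the filter, the probe set, quantile normalization, centring on the array median, a floor, the variance moderation, the samples in the fit, the replicate number and left-out arrays. Fitting every probe set on its own was added after the data were seen. Same-numbered samples did not deviate together (r across genes from −0.02 to 0.07), so the numbers were not used as pairs. Promoter sequences are those of RefSeq, GRCm38.p6. Figures were drawn with matplotlib 3.10.9.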

Additional observations from a re-analysis of the deposited data

Results flagged for a closer look

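In 4 of 36 genes, 1 of the 4 naive samples lay far from the other naive samples, measured as its gap to the nearest sample over the whole range of the group. Chance alone gives about 1 in 20 such groups. For Polr1c the share was 0.83, with replicate 1 high at 11.13. For Nhp2 it was 0.87 and for Wdr43 0.85, with replicate 2 low at 11.25 and 11.27. For Rrp1b it was 0.90, with replicate 4 low at 9.74. Without naive replicates 2 and 4 the GC minus naive differences were 0.33 for Nhp2 (adjusted p = 0.0242), −0.15 for Wdr43 (adjusted p = 0.707) and −0.79 for Rrp1b (adjusted p = 0.0164).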

How the results depend on the processing

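Precision was limited by 3 or 4 samples a group and by the signal of dim probe sets. No gene of the 36 was called between B1-8 and V23 under any alternative. With both GC groups averaged, 8 of 20 calls passed in all 20 alternatives, as did 5 of 12 in B1-8 and 6 of 20 in V23 in all 21. For genes with a single probe set, the settings that change the probe set could not alter the values. With the mean of all probe sets of a gene, 8 genes were higher in V23 and 9 in both groups together. Of all genes 15.6% and 18.1% were then higher. Bop1 then turned to −0.80 in B1-8, −0.84 in V23 and −0.82 in both (adjusted p = 0.0431). Rrp1b turned to 0.02 in V23, and Nop16 and Pes1 to −0.05 and −0.12 in both, none of them called. The dim probe sets given above enter those means.

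With arrays centred on their medians the median of all genes moved to 0.12 in B1-8, 0.19 in V23 and 0.16 in both together, and that of the 36 genes to 0.07, 0.30 and 0.20. The counts lower were then 3, 2 and 3, and the shares of all genes called were 17.7%, 22.2% and 24.2% higher against 14%, 14.7% and 16.9% lower. With quantile normalization 13 were higher and 5 lower with both groups averaged, where 23.9% and 18.5% of all genes were. Calls of Dkc1, Gar1, Ncl, Rrs1, Nop14 and Rrp1b were then lost. Polr1a (0.38, limma adjusted p = 0.0185), Rrp12 (0.55, 0.016) and Wdr12 (0.26, 0.0472) were called higher, and Bms1 (−0.23, 0.0264) lower. The intensity trend with robust moderation gave 13 higher in B1-8, against 17.7% of all genes. Fitting only the groups compared gave 3 lower in V23, against 18.9%. Without naive replicates 2 and 4, the counts higher were 4 in B1-8, 9 in V23 and 8 in both, against 14.5%, 16.5% and 18.1% of all genes. With the replicate number as a block, the counts higher were 4, 8 and 9, with no sign in the labels or correlations that the numbers pair the samples. The cause of these shifts was not tested.

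With each array left out in turn, B1-8 had 4 to 9 higher and 5 to 6 lower genes, V23 9 to 14 and 3 to 5, and both together 11 to 13 and 5 to 6. The shares of all genes called are given above for the lowest counts, 4 higher in B1-8 and 9 higher and 3 lower in V23. They were not set beside the other counts. Between the lines the count stayed at 0.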
